A study of Mus musculus with 8 samples.

Results

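The ERK pathway feedback genes are 10 genes that ERK signaling switches on and that in turn restrain or carry that signal: the phosphatases Dusp4, Dusp5 and Dusp6, the Sprouty genes Spry1, Spry2 and Spry4, the Spred genes Spred1 and Spred2, and the ETS transcription factors Etv4 and Etv5. They were found by gene symbol among probe sets annotated to 1 gene. All 10 genes had a probe set, 28 probe sets in all, and for each gene the brightest probe set, chosen by its mean signal over the 8 arrays, was read, with the other probe sets as a check. After a filter on low mean signal, 9 of the 10 were among the 10913 genes tested, of 18194 genes with a probe set. The genes were chosen with earlier results of these data known. Levels and counts of calls are therefore given as a description.

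Whole yolk sacs of mouse embryos at embryonic day 9.5 were profiled on Affymetrix arrays in 2 models of altered endothelial Notch signaling, each set against its own wild type, with 2 arrays in each of the 4 groups. EC-N1ICD embryos (Tie2 Tg/0; ROSA +/N1ICD, strain C57BL6) carried an activated intracellular domain of Notch1 switched on by Tie2-Cre, and their wild type embryos were Tie2 0/0; ROSA +/+. EC-Rbpj-KO embryos (Tie2-Cre; Rbpj flox/flox, mixed strain) lost Rbpj, the DNA-binding partner of the Notch intracellular domain, through the same Cre driver, and their wild type embryos, whose alleles the labels do not spell out, came from crosses of a Tie2 Tg/0; Rbpj +/flox male with an Rbpj +/flox female. Tie2-Cre acts in the endothelium and also in the hematopoietic lineage, while the yolk sac RNA came from endoderm, mesoderm and blood cells as well. The labels do not say that the 2 arrays of a group came from separate litters, so a p-value reflects only how far these arrays spread. In limma that spread is pooled over the 4 groups and drawn toward a trend over all tested genes. Strain, array set and model cannot be told apart when the models are compared.

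Growth factors such as FGFs and VEGF bind receptor tyrosine kinases, which load RAS with GTP and pass the signal through RAF and MEK to the kinase ERK. Active ERK induces its own inhibitors: Dusp phosphatases remove the activating phosphates from ERK, Sprouty proteins block the signal between receptor and RAS, and Spred proteins hold RAS in check together with neurofibromin. Etv4 and Etv5, members of the PEA3 group, are transcription factors induced by FGF signaling that carry out part of its transcriptional response. The level of these RNAs is widely used as a readout of ERK activity, and in vessels Sprouty and Spred proteins are known for limiting the response of endothelial cells to growth factors.

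The start regions of several of these genes are shown because the 2 models act through RBPJ, whose binding core was read here as TGGGAA. They are also shown because ERK acts on promoters through ETS factors (core CCGGAA) and through serum response factor at the CArG box. The authors searched other genes for the longer RBPJ sequence GTGGGAA, and in none of the matches below does a G stand before TGGGAA. Windows of 300 bases, from 250 before to 50 after an annotated start, were taken from RefSeq on mouse build GRCm38.p6 and read on the strand of the gene. 7 of the 10 genes had a window, 8 windows in all, and Dusp4, Etv4 and Spry4 were not matched. Motifs found on either strand are in capitals. Spred2 (chr11:19924192-19924491, plus strand) held 1 RBPJ core, starting at -59 from the start.
Spred2: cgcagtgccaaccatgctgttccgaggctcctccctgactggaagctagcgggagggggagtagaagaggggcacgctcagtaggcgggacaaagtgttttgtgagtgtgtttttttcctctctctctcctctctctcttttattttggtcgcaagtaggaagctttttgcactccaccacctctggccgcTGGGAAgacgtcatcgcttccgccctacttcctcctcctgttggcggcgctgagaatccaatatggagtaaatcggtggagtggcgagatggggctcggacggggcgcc
The second annotated start of Etv5 (chr16:22438319-22438618, minus strand) held a pair of RBPJ cores, at -238 and -229.
Etv5: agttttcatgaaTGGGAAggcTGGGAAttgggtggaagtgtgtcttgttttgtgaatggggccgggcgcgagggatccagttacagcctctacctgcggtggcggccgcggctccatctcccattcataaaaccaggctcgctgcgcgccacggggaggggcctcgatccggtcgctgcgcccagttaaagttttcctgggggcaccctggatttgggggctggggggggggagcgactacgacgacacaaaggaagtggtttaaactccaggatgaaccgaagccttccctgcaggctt
The window of Dusp5 (chr19:53528895-53529194, plus strand) held 2 CArG boxes at -82 and -72, which are CC and GG around 6 bases of A or T.
Dusp5: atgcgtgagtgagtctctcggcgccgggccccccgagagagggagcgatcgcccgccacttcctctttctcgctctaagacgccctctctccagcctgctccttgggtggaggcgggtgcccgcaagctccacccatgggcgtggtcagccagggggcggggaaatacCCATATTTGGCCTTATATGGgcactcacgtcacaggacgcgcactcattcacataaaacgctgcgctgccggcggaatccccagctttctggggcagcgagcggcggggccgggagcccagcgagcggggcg
The window of Spry2 (chr14:105896770-105897069, minus strand) held 1 ETS core at 34.
Spry2: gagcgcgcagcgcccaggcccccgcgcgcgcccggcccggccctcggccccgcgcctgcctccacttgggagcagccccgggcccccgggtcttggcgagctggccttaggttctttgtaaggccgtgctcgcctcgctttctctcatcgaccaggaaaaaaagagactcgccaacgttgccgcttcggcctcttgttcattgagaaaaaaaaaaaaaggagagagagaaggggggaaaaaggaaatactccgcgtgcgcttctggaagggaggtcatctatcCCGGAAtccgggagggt
The window of Dusp6 (chr10:99262981-99263280, plus strand) is shown beside them as that of a gene with a large change and none of these letters.
Dusp6: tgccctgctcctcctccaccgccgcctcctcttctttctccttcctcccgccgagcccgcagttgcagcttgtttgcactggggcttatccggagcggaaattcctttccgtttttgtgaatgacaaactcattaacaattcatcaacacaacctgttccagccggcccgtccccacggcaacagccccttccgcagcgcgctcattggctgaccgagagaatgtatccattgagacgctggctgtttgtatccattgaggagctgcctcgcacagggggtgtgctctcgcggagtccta

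The RBPJ core was in 2 of the 8 windows and in 25.6% of all 32851 windows of that length. The ETS core was in 1 of the 8 and in 14.9% of all, and the CArG box in 1 of the 8 and in 1.63% of all. The E-box CACGTG, the AP-1 site TGANTCA and the CRE TGACGTCA were in 0 of the 8 windows, against 7.15%, 7.81% and 1.79% of all. The remaining windows, those of Spred1 (chr2:117120821-117121120), Spry1 (chr3:37639697-37639996) and the first start of Etv5 (chr16:22439521-22439820), held none of the motifs. A match is a description of letters and not a measured binding site.

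In EC-Rbpj-KO yolk sacs 8 of the 9 tested feedback genes fell and 0 rose, at an adjusted p under 0.05 in limma with Benjamini-Hochberg adjustment over all 10913 genes. The 3 phosphatases, Spry1, Spry2, both Spred genes and Etv5 were among them, and their RNA stood at 10.3% to 54.3% of wild type. Over all tested genes, 2.96% were called lower and 2.0% were called higher in the same comparison. As the members were chosen with earlier results of these data known, their counts describe them and do not test the set. In EC-N1ICD yolk sacs 0 of the 9 passed, although 4 of them had both mutant arrays below both wild type arrays. The median log2 fold change of the 9 genes was -1.09 in EC-Rbpj-KO, beside -0.02 over all tested genes, and -0.63 in EC-N1ICD, beside 0.01. In bulk tissue, fewer cells that express these genes and less RNA per cell cannot be told apart.

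**Figure D1:**
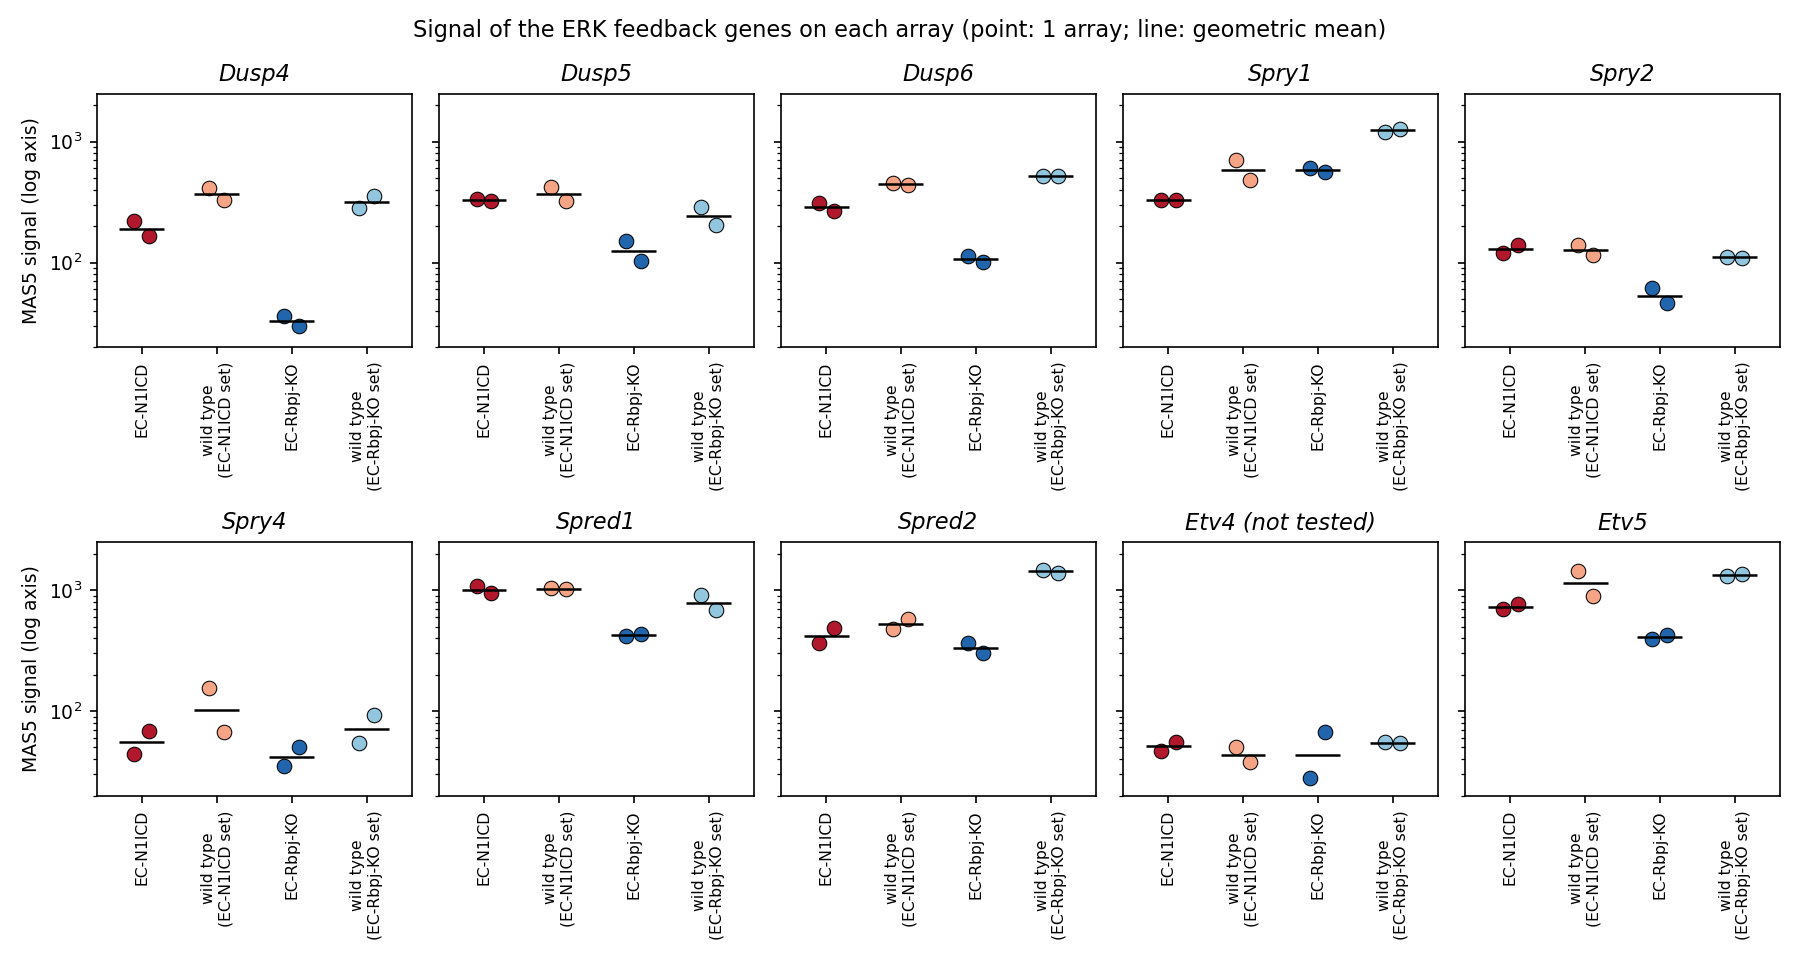
Signal (linear MAS5 units, log axis) of the brightest probe set of each of the 10 ERK feedback genes on each array, 2 arrays per group as points, with the geometric mean as a line. In 9 of the 10 genes both EC-Rbpj-KO arrays lie below both of their wild type arrays, with Etv4 as the exception. The wild type levels of the 2 sets stand furthest apart in Spry1 and Spred2. Their wild type arrays also do not overlap in Dusp5, Dusp6, Spry2, Spred1 and Etv4.

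Among the phosphatases, Dusp4, a nuclear phosphatase of ERK and other MAP kinases, gave signals of 36 and 30 in EC-Rbpj-KO and 283 and 358 in wild type. The knockout arrays were lower by a wide gap and lay below the median signal of all probe sets on their own arrays, which was 40 and 46, so the size of the fold is limited by background. The log2 fold change was -3.28 (SE 0.24, n = 2 per group, 95% interval -3.80 to -2.75, adjusted p = 7.27e-05 in limma). Dusp6, a cytoplasmic phosphatase selective for ERK, gave signals of 114 and 101 in EC-Rbpj-KO and 522 and 515 in wild type. Replicates of Dusp6 were close together, the groups did not overlap, and the log2 fold change was -2.27 (SE 0.18, n = 2 per group, adjusted p = 0.000116 in limma), a level of 20.7% of wild type. Dusp5, a nuclear phosphatase of ERK, gave signals of 150 and 104 in EC-Rbpj-KO and 289 and 204 in wild type. The groups of Dusp5 did not overlap but their replicates were further apart, and the change of -0.96 (SE 0.25, n = 2 per group, adjusted p = 0.0482 in limma) lay just inside the threshold. Leaving out 7 of the 8 arrays in turn, EC-Rbpj-KO replicate 1 being the exception, took Dusp5 past it, to an adjusted p of up to 0.281 in limma without wild type replicate 1 of that set, as did 6 of 9 other settings.

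Among the Sprouty genes, Spry1, an inhibitor of FGF and VEGF receptor signaling, gave signals of 602 and 563 in EC-Rbpj-KO and 1208 and 1269 in wild type. Both knockout arrays of Spry1 were below both wild type arrays, and the log2 fold change was -1.09 (SE 0.19, n = 2 per group, adjusted p = 0.00902 in limma), a level of 47.0% of wild type. Without wild type replicate 1 or 2 of that set the adjusted p of Spry1 in limma was 0.0559 and 0.0843, with changes of -1.12 and -1.05. Spry2, a related inhibitor, gave signals of 62 and 46 in EC-Rbpj-KO and 112 and 110 in wild type. All 4 signals of Spry2 were low, and the change of -1.06 (SE 0.26, n = 2 per group, adjusted p = 0.0394 in limma) did not pass when either wild type replicate, EC-Rbpj-KO replicate 2 or either EC-N1ICD array was left out, with adjusted p of 0.0659 to 0.193. With the mean of its 2 probe sets Spry2 changed by -0.63, and its call was also lost with no filter and with each set fitted alone. Spry4, the third of the Sprouty genes, gave signals of 35 and 50 in EC-Rbpj-KO and 54 and 92 in wild type. The Spry4 arrays did not overlap between the groups, but the change of -0.75 (SE 0.44, n = 2 per group, adjusted p = 0.372 in limma) did not pass the test. With a mean signal of 70.9 over the 8 arrays Spry4 was just inside the filter, where the lowest mean signal of a tested gene was 68, and its highest signal, 156, was on wild type replicate 1 of the EC-N1ICD set.

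Of the Spred genes, Spred2, an inhibitor of RAS to RAF signaling, gave signals of 366 and 304 in EC-Rbpj-KO and 1462 and 1394 in wild type. The gap was many times the distance between replicates, and the log2 fold change was -2.10 (SE 0.19, n = 2 per group, 95% interval -2.52 to -1.67, adjusted p = 0.000405 in limma), a level of 23.4% of wild type. The wild type arrays of the EC-N1ICD set gave signals of 479 and 582 for the same probe set, well below the wild type of the EC-Rbpj-KO set. Between those wild type groups strain and array set cannot be told apart. Spred1, the second member of the family and a partner of neurofibromin, gave signals of 418 and 436 in EC-Rbpj-KO and 905 and 682 in wild type. The log2 fold change of Spred1 was -0.88 (SE 0.18, n = 2 per group, adjusted p = 0.0163 in limma), and without wild type replicate 1 it was -0.68 (adjusted p = 0.15 in limma). With each set fitted alone the adjusted p of Spred1 was 0.059 in limma.

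Of the PEA3 factors, Etv5 gave signals of 394 and 425 in EC-Rbpj-KO and 1320 and 1361 in wild type. The groups were far apart, and the log2 fold change was -1.71 (SE 0.21, n = 2 per group, adjusted p = 0.00145 in limma), a level of 30.5% of wild type. Etv4 gave signals of 28 and 67 in EC-Rbpj-KO and 55 and 54 in wild type, which overlapped. With a mean signal of 49.4 over the 8 arrays, Etv4 was outside the filter and was not tested.

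The 8 calls were not equally firm. Dusp4, Dusp6, Spred2 and Etv5 passed without each of the 8 arrays in turn and under every other limma setting in which they were tested. Leaving out wild type replicate 1 of the EC-Rbpj-KO set left these 4 as the only calls, and leaving out its replicate 2 left 5, with Spred1 as the fifth. The methods' t-test, on the same log2 values, called 0 of the 9 after adjustment, as it did of all 10913 genes. It had 6 of the 9 at an unadjusted p under 0.05, beside 1312 of all 10913. In EC-Rbpj-KO all 9 tested feedback genes had both knockout arrays below both wild type arrays, a pattern seen in 27.5% of all tested genes.

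**Figure D2:**
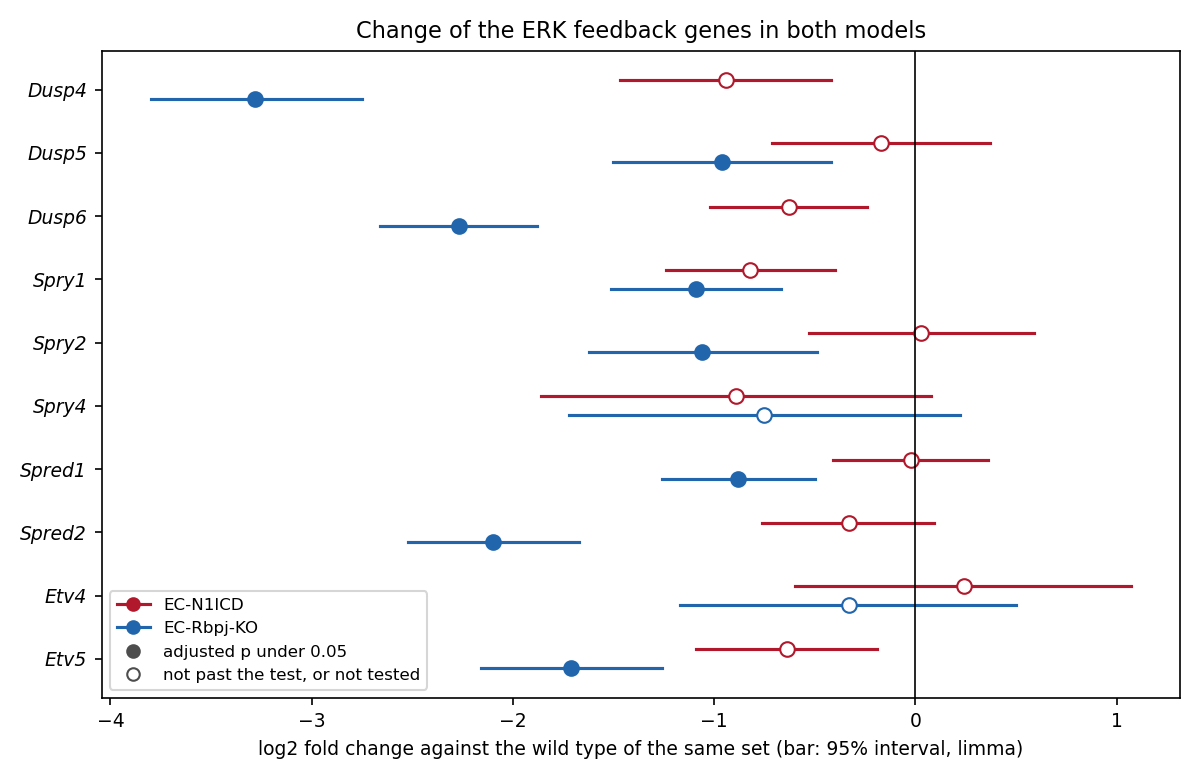
Log2 fold change of the 10 ERK feedback genes against the wild type of the same set, EC-N1ICD in red and EC-Rbpj-KO in blue, with 95% intervals from limma, filled where the adjusted p was under 0.05. All 10 EC-Rbpj-KO points lie below 0, from -3.28 for Dusp4 to -0.33 for the untested Etv4, while no EC-N1ICD point is filled.

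In EC-N1ICD yolk sacs none of the 9 changes passed, and their estimates ran between -0.94 and 0.03. Dusp4 gave signals of 220 and 166 in EC-N1ICD and 411 and 328 in wild type, which is a change of -0.94 on the log2 scale (SE 0.24, n = 2 per group, adjusted p = 0.12 in limma). Spry1 gave signals of 328 and 330 in EC-N1ICD and 703 and 480 in wild type, a change of -0.82 (SE 0.19, n = 2 per group, adjusted p = 0.0922 in limma). In both genes the transgenic arrays were below both wild type arrays, and Spry1 passed the threshold under median centring and under quantile normalization only. Dusp6 gave signals of 310 and 266 in EC-N1ICD and 451 and 440 in wild type, a change of -0.63 (SE 0.18, n = 2 per group, adjusted p = 0.161 in limma). Etv5 gave signals of 695 and 768 in EC-N1ICD and 1430 and 902 in wild type, a change of -0.64 (SE 0.21, n = 2 per group, adjusted p = 0.214 in limma). For Etv5 the distance between the wild type arrays was larger than that between the groups' nearest arrays.

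By the brightest probe set, these 4 genes were those with both EC-N1ICD arrays below both wild type arrays, 4 of 9 beside 18.9% of all tested genes. The same 4 had an unadjusted p under 0.05 in limma, beside 1309 of all 10913 tested genes. In the whole comparison 0.376% of tested genes were called higher and 0.22% lower. The methods' t-test also called 0 of the 9 after adjustment, with 1 at an unadjusted p under 0.05, beside 939 of all 10913 genes.

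The arrays of the other members overlapped. Dusp5 gave signals of 337 and 320 in EC-N1ICD and 423 and 321 in wild type (log2 fold change -0.17, 95% interval -0.71 to 0.37). Spred1 gave signals of 1086 and 946 in EC-N1ICD and 1041 and 1020 in wild type (-0.02, interval -0.41 to 0.36). Spry2, with 121 and 140 in EC-N1ICD and 141 and 115 in wild type, changed by 0.03 (interval -0.53 to 0.59). For these 3 genes the intervals spanned 0 on both sides, and their ends lay between -0.71 and 0.59. Spred2 gave signals of 362 and 486 in EC-N1ICD and 479 and 582 in wild type, a change of -0.33 (interval -0.76 to 0.09). Spry4 had 44 and 69 in EC-N1ICD and 156 and 67 in wild type, so that its change of -0.89 (SE 0.44) became -0.28 without wild type replicate 1, and Etv4 had 47 and 56 in EC-N1ICD and 50 and 38 in wild type.

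The change itself was compared between the models as the log2 fold change in EC-N1ICD minus that in EC-Rbpj-KO. 3 of the 9 genes passed, Dusp4, Dusp6 and Spred2, beside 0.266% of all tested genes in either direction. For Dusp4 the difference was 2.33 (SE 0.34, n = 2 per group, adjusted p = 0.0235 in limma), for Spred2 1.77 (SE 0.28, adjusted p = 0.0335) and for Dusp6 1.64 (SE 0.25, adjusted p = 0.0309). In each of the 3 the mean log2 signal was below wild type in both models, and further below it in EC-Rbpj-KO. The calls rested on few arrays: 0 of the 3 passed without EC-N1ICD replicate 1, without either wild type array of the EC-N1ICD set or without wild type replicate 2 of the EC-Rbpj-KO set, and Dusp4 alone passed when EC-N1ICD replicate 2, or replicate 1 of the EC-Rbpj-KO set's wild type, was left out. For Spry1 the difference was 0.27 (interval -0.33 to 0.86, adjusted p = 0.78 in limma). Etv5 differed by 1.08, Spry2 by 1.09, Spred1 by 0.86 and Dusp5 by 0.79, with adjusted p of 0.214 to 0.439 in limma, and Spry4 by -0.14 (interval -1.51 to 1.23).

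The other probe sets of the same genes gave a check on the choice of the brightest. Spred1 had 2 further probe sets above the filter, which changed by -1.60 and -1.20 in EC-Rbpj-KO, both more than the -0.88 of the brightest. Etv5 also had a further pair above the filter, which changed by -0.77 and -1.34, against -1.71 for the brightest. In all 4 of these probe sets the knockout arrays were below the wild type arrays. A second probe set of Spred2 went against the brightest, with signals of 59 and 105 in EC-Rbpj-KO and 65 and 96 in wild type and a change of -0.01. Its 3 remaining probe sets, all below the filter, changed by -1.35, -0.85 and -1.98. The mean of all 5 probe sets of Spred2 still passed in EC-Rbpj-KO, but its difference between the models was then 0.93 (adjusted p = 0.264 in limma). In EC-N1ICD the dimmer of those 2 probe sets of Spred1 changed by -0.77, where the brightest changed by -0.02. The further pair of Etv5 overlapped with wild type in EC-N1ICD and changed by -0.07 and -0.15, against -0.64 for the brightest. With the mean of its probe sets Etv5 changed there by -0.29 (adjusted p = 0.789 in limma).

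**Figure D3:**
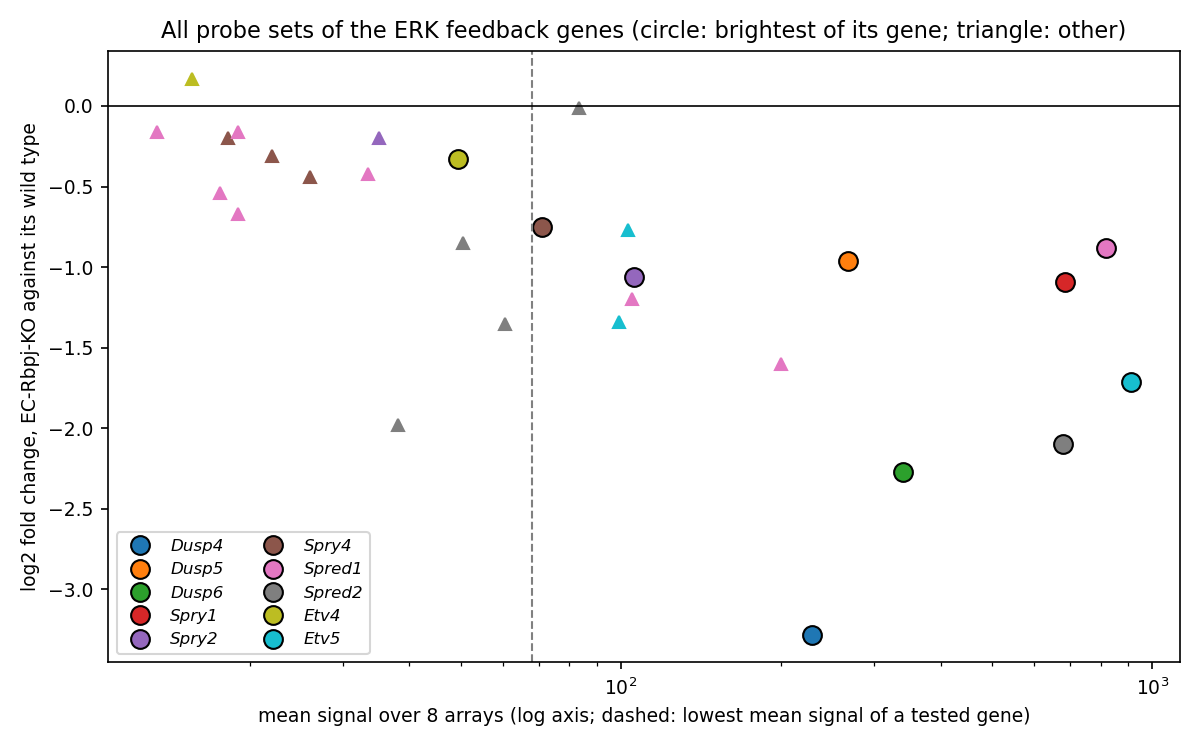
Log2 fold change in EC-Rbpj-KO against its wild type for all 28 probe sets of the 10 genes, plotted against mean signal over the 8 arrays (log axis), circles for the brightest probe set of a gene and triangles for the others. To the right of the dashed line, the lowest mean signal of a tested gene, the second probe set of Spred2 near 0 is the exception among probe sets that lie at -0.75 or below.

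The members varied together only in part over the 8 arrays. Over the 36 pairs of tested members, Pearson's r of log2 signal had a median of 0.69 and ran between -0.21 and 0.98, with 33 pairs above 0. The arrays share 4 groups, and all 9 tested members were lower in EC-Rbpj-KO, so these values describe group levels more than 8 independent points. No r over all pairs of tested genes stands beside them. The tested gene most like Dusp4 over the 8 arrays was Gtpbp4 (r = 0.991), followed by Rhebl1 (0.989) and Wdr75 (0.983). Gtpbp4 was also nearest to Dusp6 (0.987), followed by Flvcr1 (0.984) and Znfx1 (0.983). Etv5 was nearest to Wdr43 (0.991), Shmt1 (0.99) and Rrp9 (0.981). Spred2 was nearest to Abca1 (0.991), followed by Depdc7 (0.968) and Ccdc160 (0.964), and Spry1 to Il4ra (0.991), Pafah2 (0.984) and Tmem192 (0.983). Spry2 was nearest to Tmem183a (0.987), Nop9 (0.987) and Otulin (0.983), Spred1 to Enc1 (0.988), Ceacam1 (0.98) and Nufip2 (0.975), and Dusp5 to Frmd4b (0.981), Acer2 (0.981) and Nmt2 (0.978). No gene other than Gtpbp4 was among the 3 nearest of more than 1 member.

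The rest of the ERK pathway was read from lists of genes around the feedback genes. Over all 10913 tested genes 2175 had an unadjusted p under 0.05 in EC-Rbpj-KO and 1309 in EC-N1ICD. Counts of list genes at that cut are to be read beside these. Of 17 receptor tyrosine kinases, all tested, 1 rose and 1 fell in EC-Rbpj-KO: Fgfr4, an FGF receptor, gave signals of 1782 and 1885 in EC-Rbpj-KO and 1172 and 1035 in wild type (log2 fold change 0.73, adjusted p = 0.0288 in limma), and Pdgfra, the PDGF alpha receptor of mesenchymal cells, had 200 and 283 against 387 and 462 in wild type (-0.83, adjusted p = 0.0436 in limma). With the mean of all its probe sets Fgfr4 changed by 0.28 (adjusted p = 0.409 in limma), and the calls of Fgfr4 and Pdgfra were lost under 9 and 15 of 18 alternatives. Of 11 tested ligands 1 rose, Igf1, a growth factor of the insulin family, with 364 and 227 in EC-Rbpj-KO and 129 and 107 in wild type (1.29, adjusted p = 0.0138 in limma, 0.0521 without EC-Rbpj-KO replicate 1 and 0.117 without wild type replicate 2). In EC-N1ICD 0 of the 17 receptors passed, with 2 at an unadjusted p under 0.05, the PDGF beta receptor gene Pdgfrb at 0.86 (adjusted p = 0.123 in limma) and the VEGF receptor gene Flt1 at 0.59 (adjusted p = 0.343 in limma), while 1 of the 11 ligands rose. That ligand was Vegfc, which signals through VEGF receptors, with 899 and 605 in EC-N1ICD and 239 and 138 in wild type (2.02, adjusted p = 0.0145 in limma, 0.183 without EC-N1ICD replicate 1 and 0.0886 without wild type replicate 2). Median changes of receptors and ligands were 0.02 and 0.04 in EC-Rbpj-KO and 0.18 and 0.18 in EC-N1ICD.

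The core that carries the signal between receptors and ERK showed 0 calls among 15 tested genes in either model. At an unadjusted p under 0.05 there were 3, all lower, in EC-Rbpj-KO and 0 in EC-N1ICD. Over all 10913 tested genes there were 2175 and 1309 in either direction, so 3 of 15 is near the share over all genes. Nras, a RAS GTPase, changed by -0.54 (adjusted p = 0.177 in limma) and Map2k1, the gene of the kinase MEK1, by -0.33 (adjusted p = 0.222) in EC-Rbpj-KO, and in EC-N1ICD Braf changed by 0.27 (adjusted p = 0.609) and the adaptor Gab1 by 0.26 (adjusted p = 0.639). The list median was -0.19 in EC-Rbpj-KO and 0.05 in EC-N1ICD.

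Among the other negative regulators few calls were made. Of 5 other tested MAP kinase phosphatases 0 passed in either model, with 1 at an unadjusted p under 0.05 in EC-Rbpj-KO and 0 in EC-N1ICD. Dusp8, a phosphatase of stress kinases, changed by 0.92 (adjusted p = 0.104 in limma) and Dusp1, an immediate early phosphatase, by 0.43 (adjusted p = 0.457) in EC-Rbpj-KO, and in EC-N1ICD Dusp9 changed by 0.21 (adjusted p = 0.562) and Dusp16 by 0.42 (adjusted p = 0.64). Of 4 other tested feedback inhibitors 1 fell in EC-Rbpj-KO, Il17rd, also called Sef, an inhibitor of FGF signaling, with signals of 175 and 82 in EC-Rbpj-KO and 276 and 291 in wild type (log2 fold change -1.24, SE 0.29, n = 2 per group, adjusted p = 0.0326 in limma). The call of Il17rd was lost under 11 of 17 alternatives, and without EC-Rbpj-KO replicate 2 the change was -0.70 (adjusted p = 0.0953 in limma). In EC-N1ICD 0 of these 4 passed and 1 had an unadjusted p under 0.05, Errfi1, an inhibitor of EGF receptors, at 0.34 (adjusted p = 0.399), while Spry3 changed by 0.30 (adjusted p = 0.758).

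Of 13 tested genes that ERK induces, 3 fell and 0 rose in EC-Rbpj-KO. Phlda1, an ERK-induced gene, gave signals of 378 and 245 in EC-Rbpj-KO and 752 and 837 in wild type (log2 fold change -1.38, adjusted p = 0.013 in limma). Myc, the growth regulator, had 260 and 179 in EC-Rbpj-KO and 431 and 430 in wild type (-1.0, adjusted p = 0.0278 in limma). Junb, an AP-1 subunit, had 32 and 64 in EC-Rbpj-KO and 123 and 134 in wild type (-1.50, adjusted p = 0.0499 in limma). The mean signal of Junb over the 8 arrays was 68.8, where the lowest of a tested gene was 68. Without the wild type arrays of that set, where it was highest, Junb would have been below the filter, so its call is a description only. The groups of all 3 genes were apart, but the calls were weak. Without EC-Rbpj-KO replicate 2 the adjusted p in limma was 0.0611 for Phlda1 and 0.124 for Myc, without wild type replicate 1 it was 0.0555 and 0.126, and without wild type replicate 2 it was 0.101 and 0.162. The call of Junb was lost under 12 of 17 alternatives. Among the list members that did not pass were genes with both mutant arrays above both wild type arrays: Ier3, an immediate early gene, had 461 and 249 in EC-Rbpj-KO and 180 and 159 in wild type (1.0, adjusted p = 0.0545 in limma), and 283 and 331 in EC-N1ICD against 163 and 145 in its wild type (0.99, adjusted p = 0.141). Egr1, the immediate early transcription factor, changed by 0.92 (adjusted p = 0.144) in EC-Rbpj-KO and by 1.04 (adjusted p = 0.21) in EC-N1ICD. In EC-N1ICD 0 of the 13 passed, with 4 at an unadjusted p under 0.05, beside 1309 of all 10913 tested genes.

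The median of the ERK-induced genes was -0.25 in EC-Rbpj-KO and differed between its arrays, at 0.13 on replicate 1 and -0.70 on replicate 2. The feedback genes had medians of -1.04 and -1.27 on the same arrays.

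**Figure D4:**
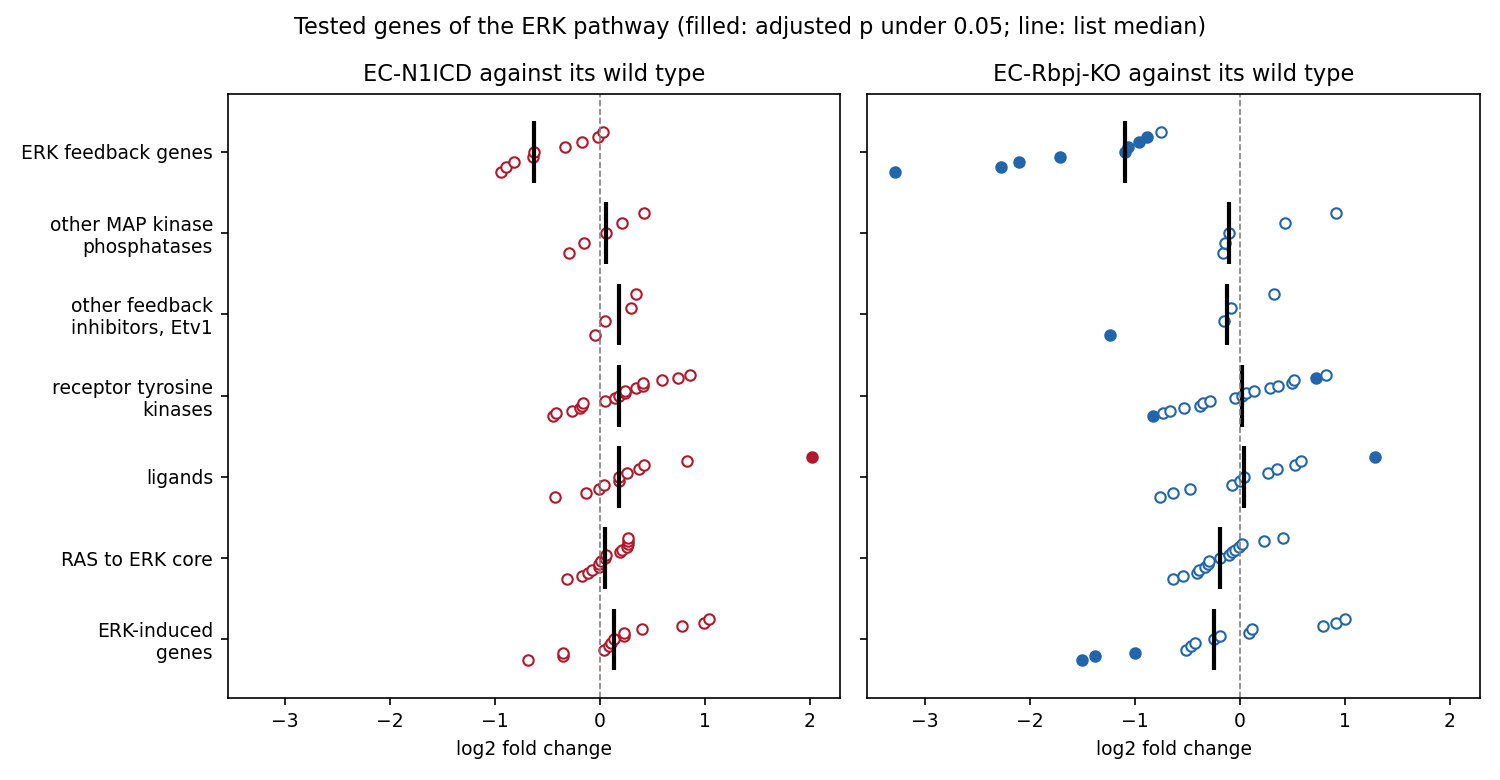
Log2 fold change of each tested gene of 7 ERK pathway lists in EC-N1ICD (left) and EC-Rbpj-KO (right) against the wild type of the same set, filled where the adjusted p was under 0.05 in limma, with the list median as a line. In EC-Rbpj-KO the feedback genes have a median of -1.09 and 8 filled points, while the medians of the other 6 lists lie between -0.25 and 0.04.

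Checks of the arrays bear on these results as follows. Rbpj gave signals of 470 and 497 in EC-Rbpj-KO and 984 and 919 in wild type (log2 fold change -0.98, adjusted p = 0.00866 in limma, and 0.076 and 0.0602 without wild type replicate 1 or 2). Hey1, a direct Notch target, gave 319 and 298 in EC-N1ICD and 147 and 103 in wild type (1.33, adjusted p = 0.0364 in limma, lost under 8 of 17 alternatives). In EC-Rbpj-KO Hey1 was low and not called, with 66 and 69 against 72 and 70 in wild type (-0.07, adjusted p = 0.906 in limma). Nrarp, another Notch target, was called higher in both models, by 2.08 with Notch1 activated and by 0.75 with Rbpj lost. The second of these calls was lost under 7 of 18 alternatives, with a change of 0.50 for the mean of all its probe sets and adjusted p of 0.0548 without EC-Rbpj-KO replicate 1 and of 0.162 and 0.0772 without wild type replicate 1 or 2 in limma. Notch1 was not called in either model, and Heyl was below the filter and not tested. The endothelial markers, the cells that Tie2-Cre targets, had 2 of 11 called higher, Cldn5 and Icam2, and 0 lower in EC-Rbpj-KO, a median change of 0.34, and summed signals of 5458 and 4118 in EC-Rbpj-KO and 4123 and 3812 in wild type. Of the 11 endothelial changes 8 were above 0 and 3 below. The lowest was Tek, with 187 and 181 in EC-Rbpj-KO and 276 and 336 in wild type (-0.73, adjusted p = 0.103 in limma). Macrophage markers had 5 of 9 higher in EC-Rbpj-KO, led by Ly86 (2.91), Csf1r (1.53), Cx3cr1 (2.60) and Tyrobp (1.27). The 1 lower was Cd68 (-0.94, adjusted p = 0.0421 in limma). Summed signals of the macrophage markers were 4560 and 3284 in EC-Rbpj-KO and 1954 and 1413 in wild type. Ly86, with 29 and 26 in wild type, lay below the median signal of all probe sets on those arrays. Without the EC-Rbpj-KO arrays, where they were highest, Ly86 and Cx3cr1 would have been below the filter, so their calls there are a description only. Visceral endoderm markers had 2 of 12 lower, Lrp2 and Cubn. The calls of Icam2, Lrp2 and Cubn were lost under 13, 6 and 14 of 18 alternatives. Extraembryonic mesoderm markers had 1 of 9 lower in EC-Rbpj-KO, Pdgfra (-0.83), and 0 higher, with a median of 0.04. In EC-N1ICD 0 of these 9 were called, with a median of -0.05. In EC-N1ICD 2 of 4 tested smooth muscle markers rose, Tagln (1.56) and Myl9 (0.86), and the call of Myl9 was lost under 11 of 18 alternatives. Summed signals of the smooth muscle markers were 18682 and 17601 in EC-N1ICD and 9034 and 10631 in wild type. Most of each sum was Acta2, which was not called, with 14640 and 13687 against 7480 and 8684 (0.81, adjusted p = 0.0651 in limma). Myh11, below the filter and not tested, went the other way, with 33 and 72 against 103 and 108. Of 5 tested megakaryocyte markers 1 fell there, Pf4 (-2.0), with all 5 changes below 0, a median of -1.09 and summed signals of 858 and 1375 in EC-N1ICD and 2311 and 3329 in wild type. Of 9 macrophage markers 1 rose in EC-N1ICD, Ly86 (2.09), with a list median of 0.75. Of these 9 changes 6 were above 0 and 3 below, Mrc1 (-0.69), Fcer1g (-0.59) and Cd68 (-0.29). The calls of Pf4 and Ly86 in EC-N1ICD were lost under 6 of 18 and 6 of 17 alternatives. Erythroid markers had 0 of 11 called in either model by limma. At an unadjusted p under 0.05 there were 7 in EC-N1ICD, all lower, and none in EC-Rbpj-KO, beside 1309 and 2175 of all 10913 tested genes. The erythroid median was -0.97 in EC-N1ICD, with changes there of -0.60 for Hbb-bh1 (adjusted p = 0.177 in limma) and -1.64 for Alas2 (adjusted p = 0.211 in limma). Summed signals of the erythroid markers were 48259 and 84171 in EC-N1ICD and 94912 and 99055 in wild type. The 1 tested trophoblast marker, Prl8a2, changed by 0.59 (adjusted p = 0.858 in limma) in EC-N1ICD and by -0.73 (adjusted p = 0.676 in limma) in EC-Rbpj-KO. The 3' to 5' signal ratio of Actb, a sign of RNA integrity, was 2.29 and 2.09 in EC-Rbpj-KO and 1.90 and 1.84 in wild type, and 1.72 and 1.75 in EC-N1ICD and 2.10 and 2.34 in wild type. That of Gapdh was 4.64 and 3.45 in EC-Rbpj-KO and 3.17 and 3.51 in wild type. In EC-N1ICD the Gapdh ratio was 2.43 and 2.48, against 3.12 and 2.76 in wild type. The part of these shifts in the results for the feedback genes was not tested. Xist, expressed from the inactive X of female cells, read 2005 to 3730 on 3 arrays, EC-Rbpj-KO replicate 1 and both of EC-N1ICD, and 77 to 96 on the other 5, so that sex and genotype cannot be told apart in EC-N1ICD. Without EC-Rbpj-KO replicate 1, which leaves low Xist in both groups of that set, the same 8 feedback genes were called.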

How the data were processed

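RNA of whole yolk sacs was hybridized to 8 Affymetrix mouse arrays, 2 in each of 4 groups. The authors deposited 1 linear signal intensity per probe set and array made with MAS5, and its version and target scaling are not given in the sources used here. The labels assigned arrays to groups. Probe sets were named from the platform annotation, those with 1 gene were kept, and the brightest by mean signal was read for each gene. Genes above the 40th percentile of mean signal were tested on log2 signal with limma 3.58.1 in R 4.3.3 (4 group means, eBayes with trend, 4 residual degrees of freedom, two-sided, Benjamini-Hochberg, threshold 0.05), each mutant against the wild type of its set. The script was tested on simulated data. The number of arrays limits the precision, and an exact permutation test of 2 against 2 cannot go below p = 0.333.

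The genes named are all 10 members with all probe sets, from each list those past the threshold in either comparison (at most 4 for each, smallest p first) or, where none passed, up to 2 with the smallest p, and for each called member the 3 genes most like it. Members and lists were chosen with earlier results of these data known. Alternatives were 16 added to each signal, no filter or the 60th percentile, median centring, quantile normalization, the mean of all probe sets, each set alone, no trend, the methods' t-test, Xist as a covariate and each array left out.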

Additional observations from a re-analysis of the deposited data

Results flagged for a closer look

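The change of 3 feedback genes differed between the models by the test of the difference itself, the log2 fold change in EC-N1ICD minus that in EC-Rbpj-KO. The difference was 2.33 for Dusp4, 1.77 for Spred2 and 1.64 for Dusp6, with adjusted p between 0.0235 and 0.0335 in limma. Dusp4 was at 52.0% of wild type in EC-N1ICD and at 10.3% in EC-Rbpj-KO, Spred2 was at 79.4% in EC-N1ICD and at 23.4% in EC-Rbpj-KO, and Dusp6 at 64.5% in EC-N1ICD and at 20.7% in EC-Rbpj-KO. Strain and array set changed with the model, and their part cannot be told apart from it. Groups of 2 arrays were not searched for outlying arrays.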

How the results depend on the processing

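Over 456 alternative values of the members' changes, 387 kept their direction and side of the threshold, 52 lost and 2 gained a call, and 15 turned direction. In EC-Rbpj-KO the 8 calls became 5 with the filter at the 60th percentile, where 5 members were tested, 5 with each set fitted alone, 0 by the methods' t-test and 4 to 8 with an array left out. Dusp5 was lost under 13 of the 17 alternatives in which it was tested. In EC-N1ICD 1 gene, Spry1, was called under median centring and 1 under quantile normalization, against 0. Of the 3 differences between the models 0 passed without the trend, and 0 to 3 with an array left out. Turned directions were all of values that did not pass. In EC-N1ICD Dusp5 lay between -0.37 and 0.03 with an array left out, Spry2 between -0.12 and 0.18, and Spred1 between -0.12 and 0.08. Spry2 in EC-N1ICD was -0.0027 under quantile normalization, -0.10 with the mean of its probe sets and -0.40 with Xist as a covariate, and Spred1 was 0.04 with Xist. Within a group, Xist differed only between the 2 EC-Rbpj-KO arrays, so the Xist covariate rested on that difference alone. It cannot show the part of sex in EC-N1ICD. In EC-Rbpj-KO it gave the same changes as leaving out replicate 1. The difference between the models lay between -0.01 and 0.54 for Spry1 and between -0.75 and 0.47 for Spry4 with an array left out, and for Spry4 was 0.23 with the mean of its probe sets and 0.12 with Xist. The cause was not tested beyond the fewer genes or arrays that some settings hold. With an array left out, the lone array of its group is assumed to vary like the other groups. Array numbers within a group do not pair the samples. Signals near the array median, as for Dusp4 in EC-Rbpj-KO, Spry4 and Etv4, limit the size of a fold.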
